A study of Mus musculus with 7 samples.

Results

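The regions described here hold a CTCF peak in P19 embryonal carcinoma cells and no peak of any other of the 4 peak lists used. They were chosen by peak presence: the peaks of 4 deposited lists were merged wherever they shared at least 1 bp, and a merged region was kept if it held a P19 CTCF peak and no peak of the other lists. This left 12880 of 65700 merged regions (19.6%), which is 39.9% of the 32277 P19 CTCF peaks (exact 95% interval 39.4 to 40.4), since every member consists of exactly 1 peak. Presence and absence of a peak are therefore the rule and not a result, and the score and width of the P19 peaks, which come from the same library, are given as description. "P19-alone" below means alone in these lists: a site whose signal fell short of the caller's limit in 3T3 counts as absent there.

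CTCF is a zinc-finger protein that binds a long, conserved DNA motif and halts the cohesin complex, which anchors chromatin loops and separates neighbouring domains. Many of its sites are bound in most cell types, whereas others are bound in only some, depending among other things on methylation of the motif and on the state of the chromatin. CTCFL, also called BORIS, is its paralogue, normally made in male germ cells, with closely similar zinc fingers. P19 cells derive from a mouse teratocarcinoma and keep properties of early embryonic cells, while NIH3T3 (3T3) cells are fibroblasts grown from mouse embryos.

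The 4 lists came from chromatin immunoprecipitation and sequencing in each line, with N2.2 as antibody to CTCF and S6 as antibody to CTCFL. All 4 libraries were labelled as cells with the stable integrates pBI-EGFP-FLAG-mCtcfl and pTA-N, a construct for tagged mouse Ctcfl, kept in medium with doxycycline at 2 μg/ml and induced by 48 h without it. The P19 samples are titled controls although they list the same construct, so their induction is unsettled. The other 3 samples of the series (P19 input DNA, and both antibodies in 3T3 cells without the construct) were not analysed here. With 1 library per group there are no replicates to test against: no p-value is given, and 95% intervals (exact, Clopper-Pearson) cover counting error only. The 3T3 CTCF list holds 45653 peaks, the 3T3 CTCFL list 16764 and the P19 CTCFL list 5866. Read depth is unknown, and a deeper or shallower 3T3 library would change which P19 sites count as alone. Positions are mm9 coordinates counted from 1. No genome or gene annotation of that build was used here, so regions are given by position, with no gene names and no sequences.

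Most P19-alone regions were weak peaks of their list, but a minority was strong. The score, which is read as a scaled negative log10 p-value and is comparable only within a list, had a median of 85.8 (quartiles 64.1 and 128, lowest 50, highest 1123) in members. The other 19397 P19 CTCF peaks had a median of 148 (quartiles 94.2 and 232). A score of at least 100 was reached by 5055 members, 39.2%, against 59.0% of all P19 CTCF peaks. At a limit of 200 there were 1129 members (8.77%), at 300 there were 255, at 400 there were 66 and at 500 there were 13. Of the 1000 highest scoring P19 CTCF peaks, 54 were members. Member peaks were also narrower, with a median of 577 bp (182 to 1739) against 674 bp for the other P19 CTCF peaks.

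The share of P19 CTCF peaks that were P19-alone fell in every step from the weakest to the strongest of 10 score groups of nearly equal size. It was 67.6% (65.9 to 69.2) in the weakest group, with scores up to 58.9, and 43.2% (41.5 to 45.0) in group 5. In the strongest group, with scores of 289 and above, it was 9.42% (8.43 to 10.5), or 304 of 3228 peaks. The width difference persisted at like score: members were narrower by median in each of the 10 groups, from 503.5 against 575 bp in the weakest to 702 against 743 bp in the strongest. A wider peak has more room to overlap another. With all peaks resized to 200 bp and to 1 kb, the share of P19 CTCF peaks that were P19-alone was 42.7% and 38.0%, against 39.9%. The part of width in the choice was not tested further.

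**Figure D1:**
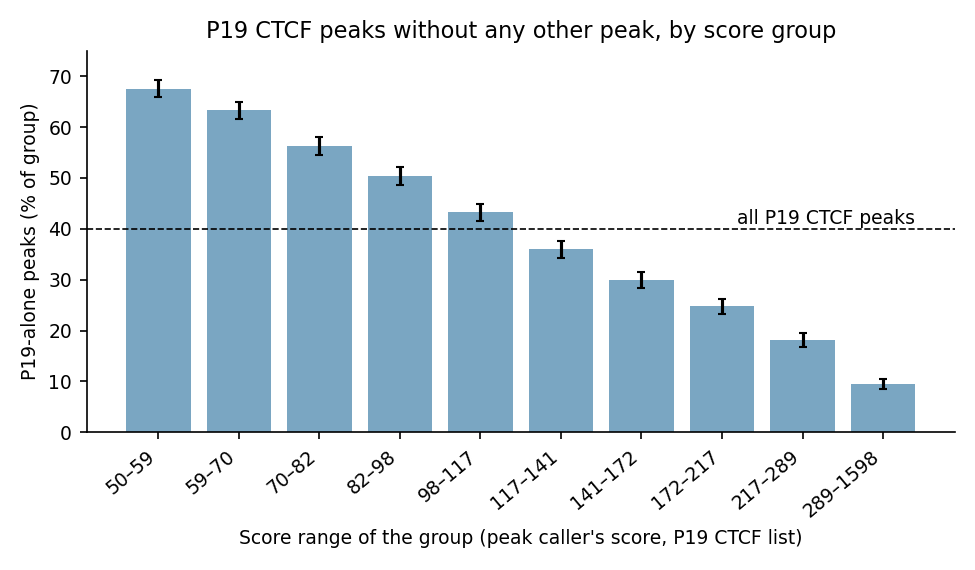
Share of P19 CTCF peaks that are P19-alone (vertical axis, percent) in 10 score groups of the P19 CTCF list, labelled by score range, with exact 95% intervals as error bars and the share over all P19 CTCF peaks as a dashed line. Bars fall from 67.6% in the weakest group to 9.42% in the strongest.

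The 12 highest scoring members all exceeded a score of 500 and lay on 9 chromosomes. First came chr7:150104944-150105733, with a score of 1123, the ninth highest of all P19 CTCF peaks (rank 9 of 32277). Its nearest 3T3 CTCF peak lay 15.9 kb away and was weak for its list (score 72.2, list median 104), and the nearest P19 CTCF peak was 23.8 kb away. The gap to the next member in score was wide, since chr5:123827241-123828010 scored 629 (rank 162) and had a 3T3 CTCF peak at 3.95 kb. Chromosome 18 held the third and the fifth site of the list: chr18:61857666-61858457 (score 591, 3T3 CTCF at 5.56 kb) and chr18:15510219-15510656 (score 564), which was isolated, with the nearest 3T3 CTCF peak at 200.4 kb and the next P19 CTCF peak at 114 kb.

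Several strong members lay almost next to a 3T3 CTCF peak. At chr2:158467338-158468083 (score 583) a weak 3T3 CTCF peak (score 62.1) began only 123 bp away, at chr2:153304047-153304832 (score 520) the gap was 370 bp, and at chr16:18210736-18211322 (score 546) it was 641 bp to a peak scoring 210. Thus 3 of the 12 had a 3T3 CTCF peak within 1 kb and 7 within 10 kb, while 5 had none that near. Over all members the shares were 7.78% within 1 kb and 42.6% within 10 kb. In the strongest score group they were 10.5% and 51.0%, so the count within 10 kb is not particular to these 12. Among those 5, 3T3 CTCF peaks were 32.6 kb from chr12:103419888-103420602 (score 533), 32.9 kb from chr1:154160340-154161129 (score 516) and 34.5 kb from chr11:26896365-26897111 (score 510). Chr3:97142622-97143132 (score 529) and chr1:92802702-92803568 (score 506) complete the list, with gaps of 1.12 and 2.66 kb.

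The strongest member of each chromosome scored between 333 (chr19:29093880-29094698) and 1123. Of these 20, 7 had a 3T3 CTCF peak within 10 kb and 13 had none. Such a peak lay near 42.6% of all members and 51.0% of those in the strongest score group, to which all 20 belong. On X the strongest member was chrX:83164268-83164993, with a score of 389 and 142 kb to the nearest 3T3 CTCF peak. The most remote of the 20 was chr17:39984369-39985889 (score 474), which was 1521 bp wide, 945 kb from the nearest 3T3 CTCF peak and 983 kb from the nearest P19 CTCF peak. It was far wider than most members (upper quartile 697 bp), and whether reads map uniquely at this site was not tested. Another isolated site was chr14:16713568-16714142 (score 487), with gaps of 337 and 315 kb to these lists. The widest members, chr11:50256780-50258518 (1739 bp), chr5:35721480-35723128 (1649 bp) and chr17:30955346-30956980 (1635 bp), scored 63.0, 124 and 58.0.

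The limit of the rule is sharp on paper, yet few members sat on it. The member nearest to another list, chr15:86403718-86404180 (score 56.4), touched a 3T3 CTCF peak with 0 bp between them. The next, chr6:82830829-82831389 (score 176) and chr7:129211412-129211953 (score 69.6), lay 3 bp from 3T3 CTCF peaks that scored 1310 and 1127. Just outside the rule, chr2:172995929-172996888 (score 159) and chr11:63733771-63734487 (score 97.5) shared 3 bp with a 3T3 CTCF peak, and chr4:150399285-150399942 (score 52.3) shared 6 bp. In all, 100 members (0.776%) were less than 100 bp from another list's peak, and 69 other P19 CTCF peaks overlapped one by no more than 100 bp.

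Most P19-alone regions had a CTCF peak of the other line within 100 kb. The median gap to the nearest 3T3 CTCF peak was 13.4 kb (quartiles 4.20 and 43.2), and 1002 members (7.78%) had one within 1 kb, 5483 (42.6%, 41.7 to 43.4) within 10 kb and 11176 (86.8%) within 100 kb. CTCFL peaks were farther off, at a median of 47.4 kb for the 3T3 list and 115 kb for the P19 list, which are also the shorter lists. The nearest foreign peak was a 3T3 CTCF peak for 9934 members (77.1%), a 3T3 CTCFL peak for 1838 and a P19 CTCFL peak for 1108. The 3T3 CTCF list is also the longest, with 45653 peaks. Gaps from other positions of the genome were not measured. These shares therefore do not show that members lie nearer to 3T3 CTCF peaks than other positions do. By score group, the median gap to 3T3 CTCF was smallest in the strongest group, at 9.51 kb, and ranged up to 14.5 kb, with 13.5 kb in the weakest.

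**Figure D2:**
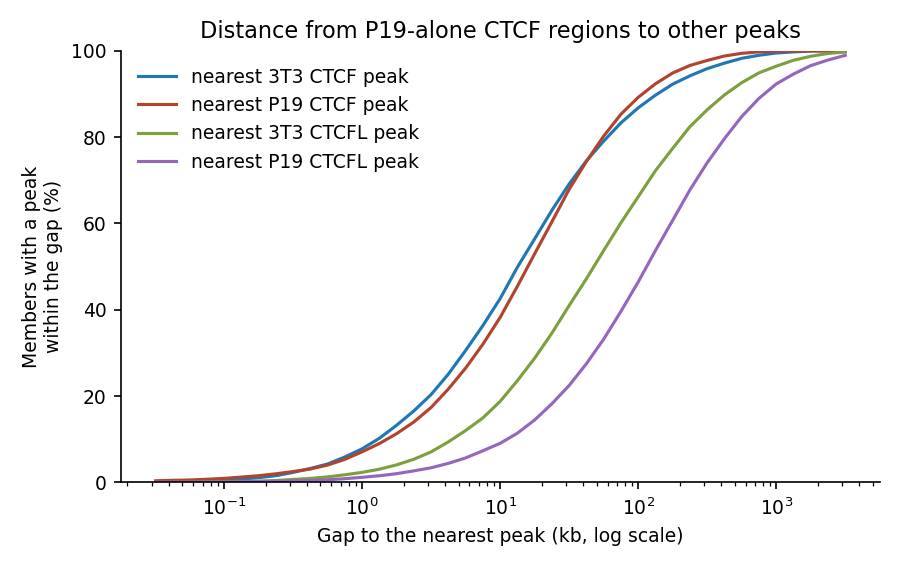
Share of the 12880 members (vertical axis, percent) that have a peak of each list within the gap on the horizontal axis (kb, log scale). The curves of 3T3 CTCF and P19 CTCF run close together, with medians of 13.4 and 15.9 kb, and those of 3T3 CTCFL and P19 CTCFL lie to their right.

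Within their own list, members were the lonelier peaks. Another P19 CTCF peak lay within 10 kb of 38.2% of members (37.4 to 39.1), against 45.0% of all P19 CTCF peaks and 47.6% (46.8 to 48.4) of those with 3T3 CTCF and no CTCFL. The median gap to the next P19 CTCF peak was 15.9 kb for members and 10.2 kb for the other P19 CTCF peaks. At like score the order was the same: the share within 10 kb was lower for members in each of the 10 score groups, from 37.4% against 44.7% in the weakest to 47.7% against 55.3% in the strongest.

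The share of P19-alone peaks was highest where P19 CTCF was sparse. In 1 Mb windows with 1 to 5 P19 CTCF regions, 1248 of 2025 P19 CTCF peaks were members, 61.6% (59.5 to 63.8). The share went down through 49.0% (6 to 10 regions), 41.4% (11 to 20) and 35.1% (21 to 40) to 29.6% (28.1 to 31.1) in windows with over 40. Peaks of sparse windows scored lower (median 95.8 against 137 in the densest), so each peak was also given the member share of its score group. The mean of these score-based shares was 45.5% in the sparsest and 36.4% in the densest windows. The measured values differed from these by 16.1 and −6.81 points. With only P19 CTCF peaks scoring at least 100, windows were classed anew by their number of such regions. The shares were then 39.9% in windows with 1 to 5 and 13.8% in those with over 40, which are not the same windows as above.

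**Figure D3:**
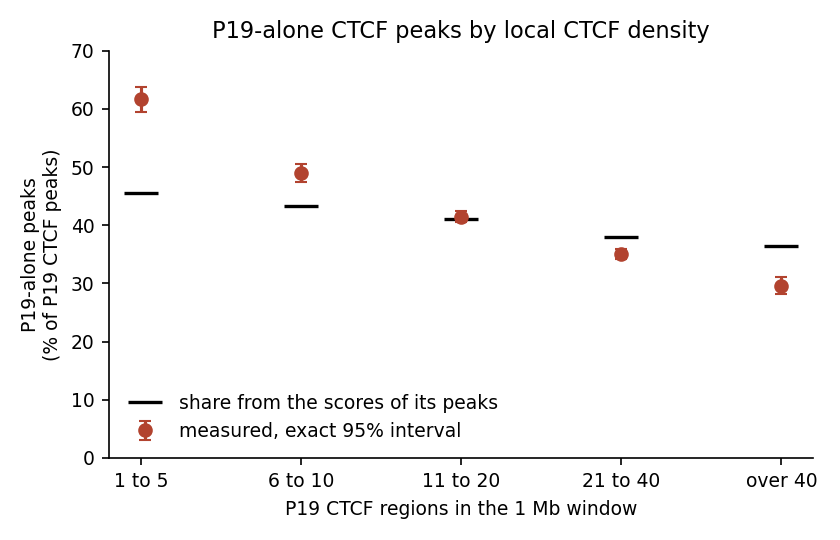
Share of P19 CTCF peaks that are P19-alone (vertical axis, percent) by the number of P19 CTCF regions in their 1 Mb window, with exact 95% intervals, and the share that the scores of the same peaks give (black bars). The measured share falls from 61.6% to 29.6%, more steeply than the score-based share, which goes from 45.5% to 36.4%.

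By chromosome, X and 16 had the highest shares of P19-alone peaks and 19 the lowest. On X, 403 of 743 P19 CTCF peaks were members, 54.2% (50.6 to 57.9). On chromosome 16 it was 504 of 1010, 49.9% (46.8 to 53.0), and on chromosome 19 it was 303 of 996, 30.4% (27.6 to 33.4). The other 17 chromosomes ranged from 35.8% on 17 to 44.5% on 14. The peaks of X had low scores (median 90.4) and a score-based share of 47.5%, and the measured share was 6.77 points higher. Chromosome 16 was 9.33 points above its score-based share of 40.6%, and chromosome 19 was below its own by 7.44 points (value −7.44). Differences on the remaining chromosomes lay between −3.70 and 3.29 points. Among P19 CTCF peaks scoring at least 100, X (40.4%, 35.0 to 46.0) and 16 (35.4%, 31.6 to 39.5) again had the highest shares of the 20 chromosomes and 19 (20.1%, 17.0 to 23.5) the lowest, although the intervals of 16 and 19 overlapped those of their neighbours in that order, 14 (30.4%, 26.5 to 34.4) and 15 (21.5%, 18.8 to 24.5).

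These chromosomes also differed in how many CTCF peaks the 3T3 list held. There were 0.972 3T3 CTCF peaks per P19 CTCF peak on chromosome 16 and 1.01 on X, the lowest ratios, against 1.80 on 19, the highest. Across the 20 chromosomes the member share and this ratio had a Pearson's r of −0.91 and a Spearman's rho of −0.88, and across the 19 autosomes −0.91 and −0.86. This is a description: both quantities rest on the same pair of libraries and are divided by the same number of P19 CTCF peaks. A P19 peak that overlaps a 3T3 CTCF peak is not a member, so the quantities are linked by construction. Why the chromosomes differ was not tested. Regions with CTCF in 3T3 alone made up 36.0% of 3T3 CTCF regions on chromosome 16 and 41.2% on X, within a range of 36.0 to 46.2% over all chromosomes. Counted per Mb, members were densest on chromosome 11 (8.26 per Mb) and sparsest on X (2.50 per Mb).

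**Figure D4:**
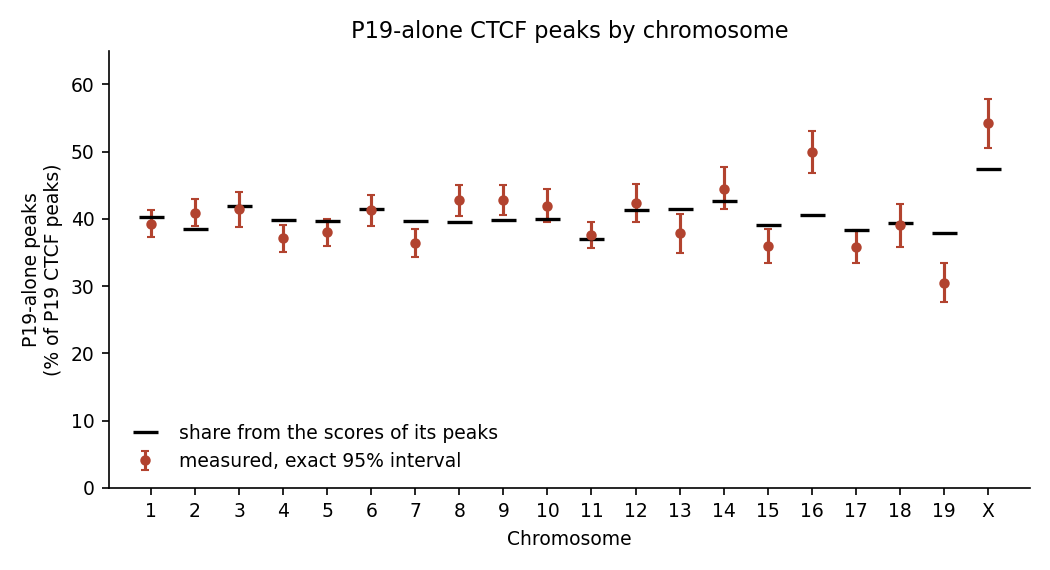
Share of P19 CTCF peaks that are P19-alone (vertical axis, percent) on each chromosome, with exact 95% intervals (red), and the share given by the scores of that chromosome's peaks (black bars). X (54.2%) and 16 (49.9%) lie above their bars and 19 (30.4%) lies below.

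P19-alone regions neighboured each other along the chromosome more often than their share of all regions. Of the regions directly before or after a member, 26.7% were members, while members make up 19.6% of all regions, a ratio of 1.36. The same ratio was 1.11 for regions with CTCF in 3T3 alone and 1.15 for regions with CTCF in both lines without CTCFL. These classes made up 29.5% and 21.3% of all regions, so the highest ratio each could reach differs. With peaks of at least 100 in every list the share was 30.4% against 24.7% of all regions. Scores are comparable only within a list, and list medians run from 75.1 (P19 CTCFL) to 117 (P19 CTCF). The limit therefore takes unlike parts of the lists and changes which regions are members. The other classes were not computed at this limit. A member had no member beside it in 7144 cases (55.5%), on a single side in 4586 and on both sides in 1150 (8.93%). Median scores in these classes were 85.6, 86.5 and 85.0, which lie close together.

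Uninterrupted runs of members reached 15 regions. There were 2293 runs of at least 2, which held 5736 members (44.5%), and 101 runs of at least 5, which held 619 (4.81%, median score 84.0). Runs of 5 or more were found on all 20 chromosomes, with 10 on chromosome 1 and 1 each on 18 and 19. The longest, chr6:68052228-70418908, held 15 members over 2367 kb, with scores from 50.4 to 177 (median 98.6). By the definition of a run, no peak of another list lies between the regions that flank it. Around this run that left 2678 kb without a 3T3 or P19 CTCFL peak, and the length alone is description. A further run, chr16:72985459-75344071, had 13 members over 2359 kb, with scores of 51.4 to 263, inside 2696 kb without a 3T3 peak.

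The next runs were of the same kind, and the absence of 3T3 peaks within them again follows from the definition. Chr1:100041416-104275617 held 11 members (scores 52.0 to 167) in 4802 kb without any 3T3 peak. Chr12:115390996-117266776 held 10 (54.7 to 197) in 1999.5 kb, and 7 further P19-alone regions lay within 500 kb before its start, interrupted by only 2 regions with a 3T3 peak. Of 4 runs with 9 members, 2 were on chromosome 1 (chr1:109532458-111959028 and chr1:114771262-119416547), and the others were chr4:49932041-52375187 and chrX:58299981-61311990. Long runs were not always spread thin. Chr10:42010912-42174850 packed 8 members into 164 kb with scores up to 286, and chr17:48715870-48760663 packed 7 into 44.8 kb with scores of 56.8 to 176.

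**Figure D5:**
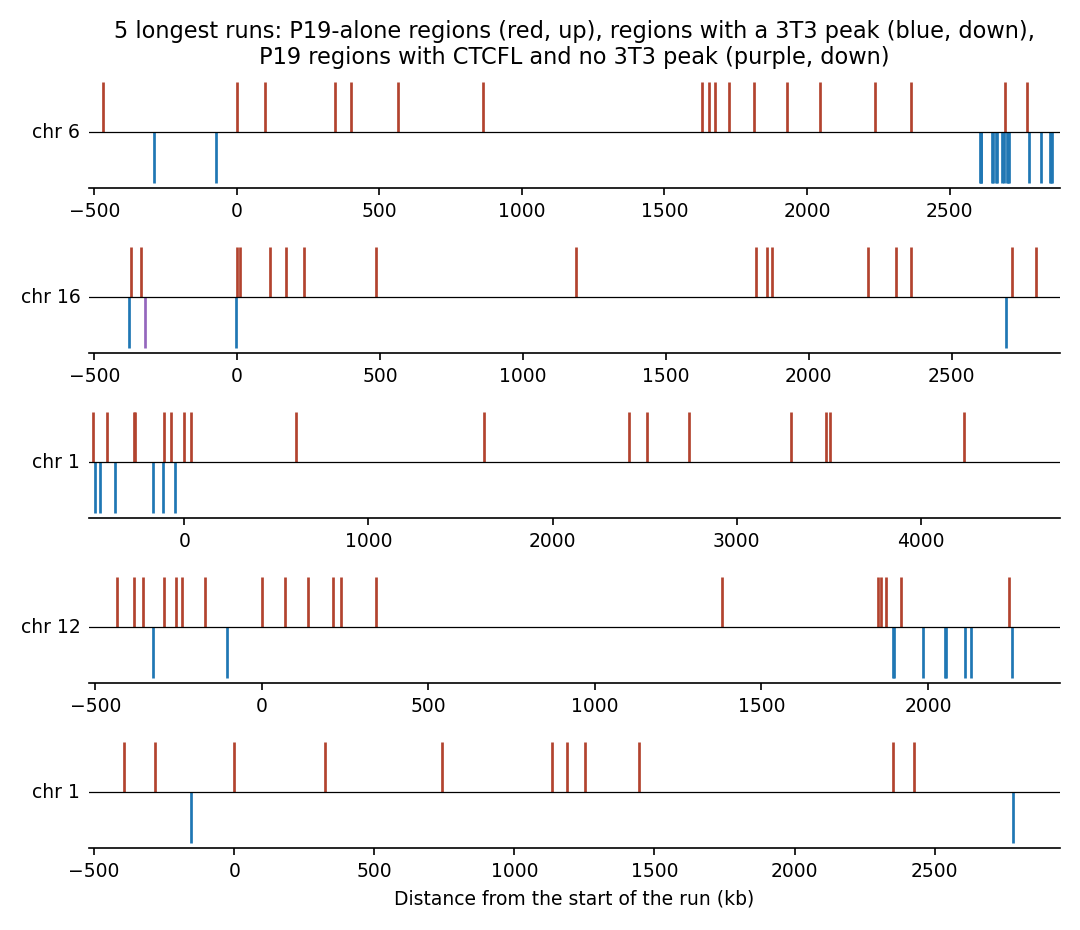
The 5 longest runs with 500 kb on each side (horizontal axis, kb from the start of the run; scales differ between rows). P19-alone regions point up in red, regions with a 3T3 peak point down in blue and P19 regions with CTCFL but no 3T3 peak point down in purple; no blue mark falls inside a run, which follows from how runs were found.

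In fixed 1 Mb windows, members were present nearly everywhere. Of 2408 windows with a P19 CTCF region, 2327 held a member, with a median of 5 and at most 24. Members make up 39.9% of P19 CTCF peaks, and the same count was not made for other classes. The wide spread is therefore not shown to be particular to members. The richest windows were chr4:141000001-142000000 (24 of 43 P19 CTCF regions), chr5:129000001-130000000 (23 of 40), chr2:168000001-169000000 (22 of 53), chr2:170000001-171000000 (22 of 37) and chr4:138000001-139000000 (22 of 48). The first of these also held 30 regions with CTCF in 3T3 alone, so sites seen in either line alone lay side by side there. Across 2460 windows with any CTCF region, the number of members and the number of 3T3-alone CTCF regions had a Spearman's rho of 0.66, and members and common CTCF regions one of 0.70. Windows share the regional density of CTCF sites, so these values are descriptions.

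In some windows nearly all P19 CTCF regions were P19-alone. Among 1271 windows with at least 10 P19 CTCF regions, members made up 50% or more of them in 302, and 1 window had no member. The highest shares were found at chr12:115000001-116000000 (12 of 13), chr7:143000001-144000000 (11 of 12), chr1:80000001-81000000 (10 of 11), chr1:130000001-131000000 and chr6:23000001-24000000 (9 of 10 each). They differed in what 3T3 showed: the chromosome 12 window had 2 regions with 3T3 CTCF, whereas chr1:130000001-131000000 had 10, of which 9 were 3T3 alone. In 151 windows there was P19 CTCF and no 3T3 CTCF, and these held 288 members. The leading ones were chr10:73000001-74000000 with 7 and chr6:68000001-69000000, chr6:69000001-70000000 and chr7:47000001-48000000 with 6 each. By the rule, a P19 CTCF region in such a window is a member unless it holds a CTCFL peak. Membership there is therefore no separate result, and the chromosome 6 windows overlap the longest run.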

How the data were processed

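The 4 peak lists were used as the authors deposited them, each with chromosome, start, end and the peak caller's score. Per the submitters' processing notes, FastQC, Bowtie, SAMtools and MACS 1.4 were used, with builds hg19 and mm9 and no roles given. mm9 was taken from the organism; peaks extended past the final gene of the GRCm38.p6 table on 10 of 20 chromosomes, so that table was not used. Aligner settings, read depth, the control library and any pooling of libraries were not given in the sources used here. Libraries were made from 10 ng of DNA, per the labels' protocols.

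Peaks sharing at least 1 bp were merged (inclusive positions). Gaps are bases between peak edges. The P19 CTCF list was ranked by score and divided into 10 nearly equal groups. A score-based share is the mean, over the peaks of a chromosome or window class, of their groups' member shares. Runs are consecutive merged regions that are all members. Windows take regions by their start.

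Named regions are the 12 members with the highest score, the highest of each chromosome, 3 on each side of the rule's limit, the 3 widest, and the 5 leading windows and runs; the text gives most, and the chromosome 10 and 17 short runs and the windows without 3T3 CTCF were added after their values were seen. The members and the rules were chosen with earlier results of these data known. Merging gave the same 65700 regions as bedtools, and all 32277 gaps to 3T3 CTCF were equal; merging was also tested on simulated peaks. Tools were bedtools 2.31.1, Python 3.11.15, matplotlib 3.10.9, SciPy 1.17.1, pandas 2.3.3 and numpy 2.4.6. Motif, sequence and gene analyses need a genome of the same build and were not run.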

Additional observations from a re-analysis of the deposited data

How the results depend on the processing

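No paired analysis was possible because there was 1 library per group, and for the same reason no replicate could be left out. The motif alternative was not run for want of a genome of the same build, and members per Mb are given as values by chromosome. The number of P19-alone regions stayed within 1.5 times of 12880 under every other criterion of overlap and peak width. Members overlap no other peak, so requiring overlap of 50% of the shorter peak cannot remove any. Requiring peak centres within 200 bp can hardly do so. These criteria could in practice only add peaks, and they added 121 and 904. The number of P19-alone regions fell to 6938 when no other peak was allowed within 10 kb, to 5055 and 1129 with P19 CTCF scores of at least 100 and 200, and to 3175 with every list at the length of the shortest. The share of P19 CTCF peaks was then 21.5%, 26.5%, 15.0% and 54.1%. It was 38.1%, 36.3% and 27.4% with no other peak within 0.5, 1 and 5 kb, 42.7% with centres within 200 bp, 42.7% and 38.0% with peaks resized to 200 bp and 1 kb, 42.8% when 3T3 CTCF alone excluded, and 56.9% with the other lists at scores of at least 100. Limits on score or list length take out the weak peaks by their construction. With P19 CTCF scores of at least 100, the members' median score was 144 and width 631 bp, and 48.2% of members had another list within 10 kb. The score groups were then drawn anew from the remaining peaks, and the member share was 43.7% in the lowest and 7.03% in the highest. The richest 2 Mb window held 43 members, and 232 runs of 5 or more were found when only regions scoring at least 100 broke a run. Among alternatives chosen after seeing the data, member shares with scores of at least 100 were 39.9% in the sparsest and 13.8% in the densest windows, with windows classed anew. With scores of at least 100 in every list, 30.4% of members' neighbours were members, as were 24.7% of all regions. A count was said to stay if it was within 1.5 times of the main value, and a share or median if it lay inside the main value's 95% interval. Of the values recomputed under the alternatives set out with the design 22 stayed and 26 moved, and of those added later 5 stayed and 3 moved. Autosomes alone moved none of the values they were run for. The unknown depth limits what absence of a 3T3 peak shows.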
